A study of Mus musculus with 65 samples.

Results

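This account follows 4 genes of the response to metal ions, Mt1, Mt2, Mtf1 and Slc30a1, through a PRO-seq study of mouse erythroleukemia (MEL) cells. They were taken by symbol from the gene tables, with the transcript of highest mean. Mt1 (NM_013602), Mtf1 (NM_008636) and Slc30a1 (NM_009579) were found, each with 1 transcript, so that 3 of the 15020 measured gene symbols are described. Mt2 was not analysed here. Mt1 was selected on measured values, its large interaction of degrader and A485 at 1 h, so its values in that experiment are a description without a test. Mtf1 and Slc30a1 were tested in all 4 experiments and Mt1 in the other 3.

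Metallothioneins are small cysteine-rich proteins that bind zinc and copper and buffer cadmium. Their genes, Mt1 and Mt2, lie side by side and are switched on by MTF1, a zinc-finger transcription factor that senses free zinc and binds metal response elements. Slc30a1 encodes ZnT1, the transporter that moves zinc out of the cell, and is another textbook target of MTF1. Metallothionein genes are also known to respond to glucocorticoids and to oxidative stress.

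PRO-seq tags the RNA that engaged polymerases are making in isolated nuclei, and therefore measures transcription rather than RNA stock. All 65 samples were MEL cells in which the corepressor Mtg16 carried FKBP and 2XHA tags, also in the DMSO controls, so every comparison is within the tagged line; whether it is 1 clone is not given. The agents were dTAGV1 at 250 nM, which sends FKBP-tagged proteins for degradation (called the degrader here), A485 at 10 µM, which blocks the acetyltransferase activity of p300 and CBP, and LBH589 (panobinostat) at 5 nM, an inhibitor of histone deacetylases. The time course held degrader for 15 min, 30 min, 1 h and 2 h, washout of the degrader for 30 min, 1 h and 2 h after 2 h of exposure, and DMSO. The A485 series held degrader plus A485, A485 alone and degrader alone, each for 15 min, 30 min and 1 h, and DMSO. The LBH589 series held LBH589 for 30 min and 1 h, and DMSO. The LBH589 washout series held cells given LBH589 as well as degrader for 2 h, at 1 h and 30 min after degrader removal, with no DMSO group. Groups held 3 libraries, except in the time course (degrader 2 h, washout 30 min and washout 2 h with 2, washout 1 h with 1) and in the A485 series (A485 30 min and degrader plus A485 30 min with 2).

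Values are the authors' normalised counts. Depth was recovered from the steps between values. It is the sum of recovered reads over all 25857 transcripts, in which a read shared by transcripts of a gene may count more than once. The A485 series was the most uneven, with about 7450000 to 62000000 reads per library. Depth ran from 16200000 to 62400000 reads over the time course, from 28100000 to 44800000 with LBH589 and its DMSO, and from 13500000 to 29100000 after the LBH589 washout. In such bulk samples, fewer cells of a type and less RNA per cell cannot be told apart. Each table was normalised separately, so levels are compared only within an experiment. Of the erythroid markers, Gata1, Klf1, Tal1 and Alas2 were transcribed in every experiment (mean normalised counts in the A485 series of 1318, 551, 2140 and 209), while Hbb-bs averaged 3.78 there. Of the markers of other cell types, Cd79a and Krt8 averaged 10.6 and 42.7 in the same series. Erythroid markers moved with the agents. At 1 h of degrader against DMSO, Gata1 and Alas2 changed by 1.17 ± 0.14 and 1.99 ± 0.13 on the log2 scale in the time course (limma adjusted p = 1.67e-05 and 3.3e-08) and by 0.67 ± 0.09 and 1.27 ± 0.17 in the A485 series (2.37e-07 and 4.54e-07). At 1 h of A485 against DMSO they changed by -3.30 ± 0.09 and -4.55 ± 0.17 (1.39e-26 and 2.8e-22). The part of these changes in the results was not tested. In the time course, degrader 30 min replicate 3 correlated at r = -0.22 with the other libraries of its own group and at r = 0.89 with the 30 min washout libraries, over the 2000 most variable genes. Degrader 15 min replicate 2 correlated at r = -0.41 with its own group. Results that rest on these 2 libraries are given with and without them. In the time course, the 5 libraries at 1 h and 2 h of degrader bear A485 in their titles and degrader in their library names, and were read by library name. A change is called where the adjusted p (limma, Benjamini-Hochberg over all genes tested) was under 0.05.

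The promoters of the 2 measured effector genes are shown because the metal response element is the known link between them and MTF1. The 250 bases before the annotated start come from RefSeq, build GRCm38.p6, both on the plus strand, at chr8:94178839-94179088 for Mt1 and chr1:191906531-191906780 for Slc30a1, with matches to the metal response element in capitals.
Mt1: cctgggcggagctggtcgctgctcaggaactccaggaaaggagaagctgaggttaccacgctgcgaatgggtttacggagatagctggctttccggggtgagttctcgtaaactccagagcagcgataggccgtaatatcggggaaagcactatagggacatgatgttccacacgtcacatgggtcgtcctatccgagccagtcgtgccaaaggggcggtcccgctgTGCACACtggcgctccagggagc
Slc30a1: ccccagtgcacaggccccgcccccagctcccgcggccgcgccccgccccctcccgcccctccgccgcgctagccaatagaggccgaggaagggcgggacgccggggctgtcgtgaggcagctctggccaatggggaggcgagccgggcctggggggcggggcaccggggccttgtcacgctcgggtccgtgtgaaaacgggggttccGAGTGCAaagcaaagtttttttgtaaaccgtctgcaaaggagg
The letters searched were TGCACNC and TGCGCNC on both strands, in the 250 bases before and the 50 after the start. Mt1 held 3 matches in these 300 bases, TGCACAC beginning 23 bases before the start and TGCACTC and TGCGCTC beginning at bases 3 and 21 after it. Slc30a1 held 2, both on the minus strand, beginning 43 bases before the start and at base 31 after it. Mtf1 held 0 matches in its window. The Mt2 window, from the same reference, held 4. At least 1 match occurred in 25.7% of 32851 RefSeq promoter windows of the same length, at least 2 in 7.11% and at least 3 in 1.97%, so a single match is common. The letters TGACNNNGC of the antioxidant response element were found in 1 place in Slc30a1, not in Mt1, and in 12.4% of all windows. These are matches of letters and not measured binding. Positions are relative to the annotated start, which was not checked against these data, and bases more than 50 after it were not searched.

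Mt1 read lower at each later time of degrader in the A485 series, and lower still with A485. The 3 DMSO libraries read 165, 178 and 153 normalised counts. The degrader libraries read 155, 129 and 138 at 15 min, 106, 102 and 73.6 at 30 min, and 55.5, 75.2 and 52.8 at 1 h. Each later degrader group lay below the earlier one without overlap at 30 min, and with overlap between 30 min and 1 h, where the lowest 30 min library (73.6) was below the highest 1 h library (75.2). At 1 h the degrader group mean was 61.2 ± 12.2, against 165 ± 12.3 in DMSO (SD, n = 3 each), which is 37% of the DMSO mean.

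With A485, Mt1 was within 15 min as low as with the degrader alone at 1 h, with overlapping values. The A485 libraries read 43.7, 66.4 and 58.9 at 15 min, 29.4 and 53.1 at 30 min, and 14.4, 18.7 and 27.3 at 1 h. With degrader plus A485 the values were 48.7, 46.3 and 55.8 at 15 min, 39.0 and 24.1 at 30 min, and 28.8, 26.9 and 30.0 at 1 h. All 16 libraries with A485 lay below all 3 DMSO libraries. In degrader plus A485 against degrader alone, the change of Mt1 was -1.47 ± 0.23 at 15 min, -1.57 ± 0.26 at 30 min and -1.06 ± 0.23 at 1 h, on the log2 scale (± SE), where 54.3%, 59.6% and 62.6% of all genes were called. Ordered by their means, 8 of the 9 pairs of neighbouring groups of this series overlapped for Mt1, and the only gap lay between degrader 15 min and degrader 30 min.

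**Figure D1:**
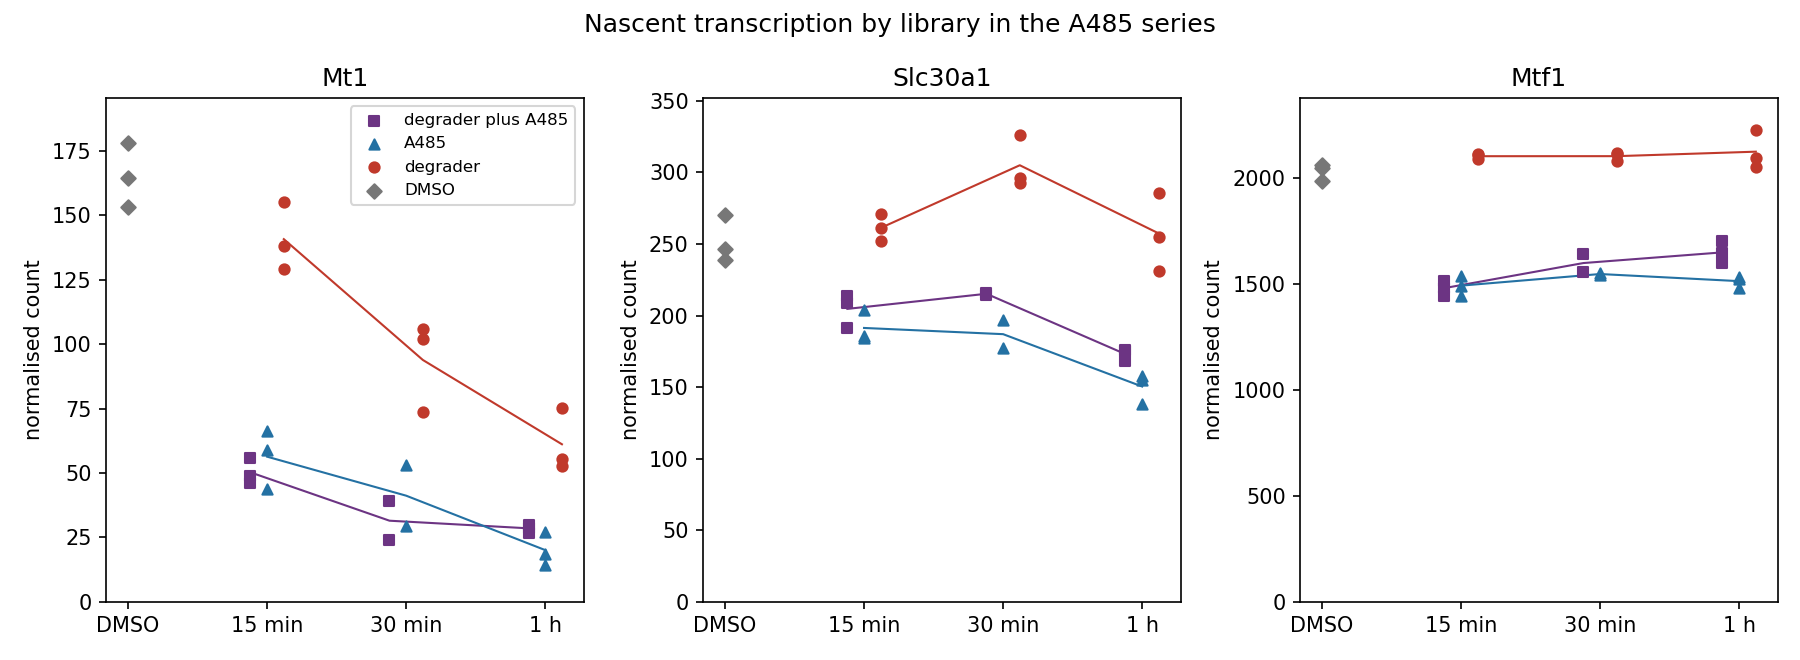
Normalised counts of Mt1, Slc30a1 and Mtf1 in each library of the A485 series (points; lines join group means), by time, with linear axes from 0. Mt1 fell with degrader alone to a mean of 61.2 at 1 h, while Slc30a1 and Mtf1 were lower in all 16 libraries with A485 than in DMSO.

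The interaction of degrader and A485 is the log2 change with the degrader in cells that have A485 minus that in cells that do not. At 1 h, Mt1 changed by 0.53 ± 0.23 on the log2 scale in degrader plus A485 against A485, and by -1.43 ± 0.23 in degrader against DMSO (± SE), so that the interaction was 1.97 ± 0.32. It ranked 9th from the top among 12597 genes, which describes how the gene was chosen. In that contrast 11.5% of all genes were called. The interaction was 0.09 ± 0.32 at 15 min and 0.47 ± 0.36 at 30 min, where 5.32% and 8.20% of genes were called. On the scale of normalised counts, the difference of the means at 1 h was 8.45 for degrader plus A485 against A485 and -104 for degrader against DMSO.

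The interaction at 1 h was about as large without DMSO. When the 15 min groups took the place of DMSO, which removes DMSO from the sum, the interaction was 1.88 ± 0.40 at 1 h and 0.38 ± 0.43 at 30 min. Within the degrader groups alone, Mt1 changed by -1.20 ± 0.23 between 15 min and 1 h, the later time minus the earlier (19.3% of genes called). Leaving out each of the 12 libraries of the contrast in turn gave values from 1.759 to 2.199, and the 3 values without 1 DMSO library were 1.97, 1.91 and 2.02.

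The part of the interaction that rests on A485 has few reads behind it. Mt1 had 27, 36 and 39 recovered reads in the degrader plus A485 1 h libraries and 5, 13 and 15 in the A485 1 h libraries. The exact 95% Poisson intervals ran from 19 to 41.9, from 18.9 to 37.3 and from 21.3 to 41 normalised counts in degrader plus A485, and from 4.65 to 33.5, from 9.94 to 31.9 and from 15.3 to 45 in A485 (counting error only). Every interval of one group overlapped every interval of the other. Such overlap is not a test, and the difference between means of 28.6 in degrader plus A485 and 20.1 in A485 was not tested. At 30 min the interaction moved with single libraries, to 0.05 without A485 30 min replicate 1 and to 0.89 without A485 30 min replicate 2. A485 and degrader plus A485 at 30 min and 1 h are numbered 1 to 3 and the other groups of this series 4 to 6. The meaning of the numbers is not given, and their part in the interaction was not tested. Where a group numbered 1 to 3 is compared with DMSO, degrader alone or a 15 min group, the numbers differ along with agent or time. In those comparisons, for every gene, numbering and treatment cannot be told apart.

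**Figure D2:**
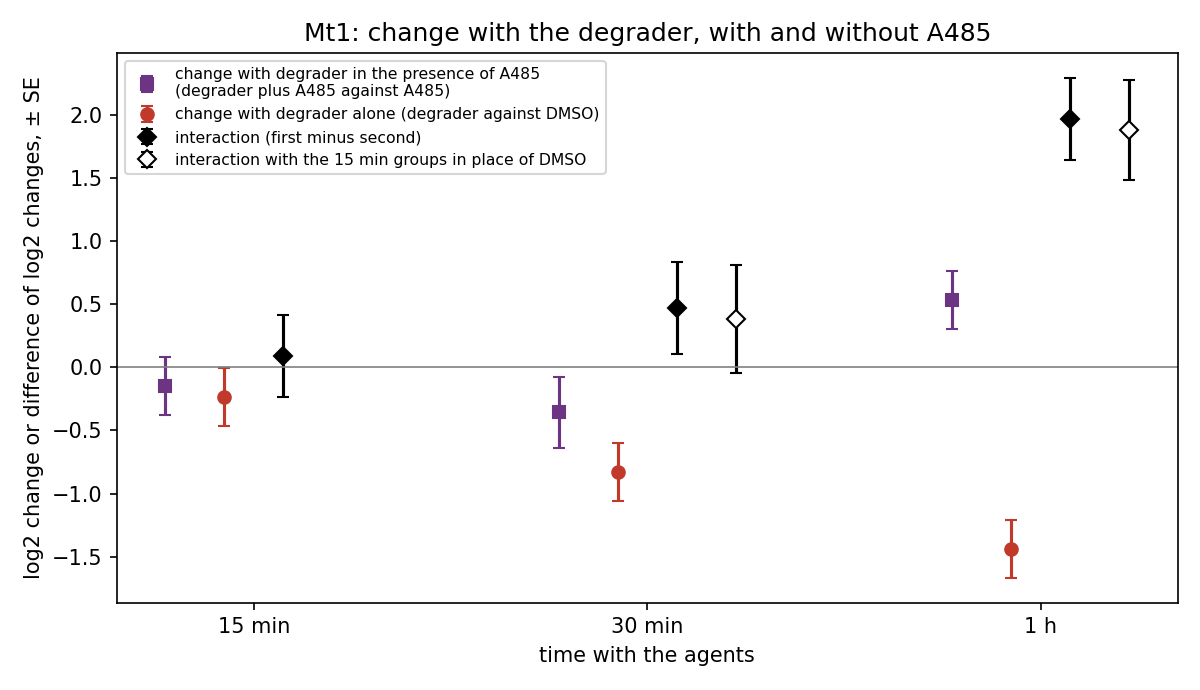
Log2 changes of Mt1 (points ± SE) with the degrader in the presence of A485 and with the degrader alone, and their difference, at 15 min, 30 min and 1 h. The difference at 1 h was 1.97 with DMSO and 1.88 with the 15 min groups in place of DMSO.

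For the other 2 genes the interaction could be tested and was not called. At 1 h it was 0.06 ± 0.06 for Mtf1 (adjusted p = 0.537) and 0.17 ± 0.13 for Slc30a1 (adjusted p = 0.432), by limma. At 15 min and 30 min it lay between -0.07 and 0.04 for both genes, with adjusted p from 0.651 to 0.983. These tests show no call and do not show that the genes responded alike.

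Slc30a1 changed little with the degrader in this series. Its DMSO libraries read 247, 238 and 269.9. The degrader libraries read 271, 261 and 252 at 15 min, 326, 293 and 296 at 30 min, and 231, 255 and 285 at 1 h. Only the 30 min group lay wholly above DMSO, and its change of 0.28 ± 0.09 was called (limma adjusted p = 0.0329; 20.6% of all genes were called). That call was lost without degrader 30 min replicate 4 (adjusted p = 0.135) or replicate 6 (0.0508), without DMSO replicate 4 (0.101) or replicate 5 (0.127), and after quantile normalization (0.24, adjusted p = 0.0627).

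Slc30a1, the zinc exporter, fell with A485 at all 3 times. At 30 min and 1 h the A485 libraries also differ from DMSO in their numbering. The A485 libraries read 204, 185 and 184 at 15 min, 196 and 177 at 30 min, and 158, 155 and 138 at 1 h. With degrader plus A485 the values were 208, 192 and 214 at 15 min, 216 and 214 at 30 min, and 176, 175 and 168 at 1 h. The change in A485 against DMSO was -0.39 ± 0.09 at 15 min, -0.43 ± 0.11 at 30 min and -0.74 ± 0.09 at 1 h, with limma adjusted p of 0.0006, 0.000763 and 2.45e-08. Of all genes, 55.1%, 58.1% and 62.6% were called in these 3 comparisons, so that a call by itself is the usual outcome with A485. In degrader plus A485 against DMSO, Slc30a1 changed by -0.30 ± 0.09 at 15 min and -0.54 ± 0.09 at 1 h (adjusted p = 0.00791 and 7.84e-06), and at 30 min by -0.22 ± 0.11 without a call (adjusted p = 0.0668), where 53.4%, 63.0% and 58.3% of genes were called; the 15 min call was lost without DMSO replicate 6 (adjusted p = 0.0527). Within A485, Slc30a1 was lower at 1 h than at 15 min by a change of -0.35 ± 0.09 (adjusted p = 0.00367; 36.5% of genes called) and lower at 1 h than at 30 min by -0.31 ± 0.10 (0.0336; 18.2% called). The first call was lost when only the compared groups were fitted (adjusted p = 0.0632). The second was lost in that fit (0.316), by edgeR (0.0985) and by DESeq2 (0.159), and without A485 1 h replicate 3 (adjusted p = 0.12) or A485 30 min replicate 1 (0.275) or 2 (0.0522). In degrader plus A485 the 1 h group was lower by -0.24 ± 0.09 than at 15 min and by -0.31 ± 0.10 than at 30 min (adjusted p = 0.0437 and 0.0345; 36.0% and 17.5% called), calls lost without any 1 of the 3 libraries at 1 h (adjusted p from 0.0573 to 0.114), without either 30 min library (0.123 and 0.125) and without 15 min replicate 4 or 6 (0.11 and 0.143). Of these 2, DESeq2 called neither (adjusted p = 0.0672 and 0.119), and the change against 30 min was not called by edgeR (0.0766) or with only the compared groups fitted (0.102). In degrader plus A485 against degrader alone, Slc30a1 changed by -0.35 ± 0.09, -0.50 ± 0.10 and -0.56 ± 0.09 at 15 min, 30 min and 1 h (adjusted p = 0.00186, 0.000117 and 3.38e-06), and against A485 alone by 0.10 ± 0.09, 0.20 ± 0.12 and 0.20 ± 0.09 without a call (adjusted p = 1, 0.413 and 0.214; 0.881%, 1.81% and 6.90% of genes called).

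Mtf1, the metal sensor itself, fell with A485 and was not called with the degrader in this series. Its DMSO libraries read 2047, 2058 and 1983. The 9 degrader libraries of this series ran from 2052 through a median of 2105 to 2223, and the changes of 0.05 to 0.06 were not called (adjusted p from 0.242 to 0.434; 16.7%, 20.6% and 25.6% of genes were called at 15 min, 30 min and 1 h). The 16 libraries with A485, alone or with degrader, ran from 1444 through a median of 1535 to 1702, all below DMSO. The change in A485 against DMSO was -0.44 ± 0.04 at 15 min, -0.39 ± 0.04 at 30 min and -0.42 ± 0.04 at 1 h (limma adjusted p = 9.07e-12, 1.84e-09 and 1.73e-11). With degrader plus A485 against DMSO it was -0.46 ± 0.04, -0.35 ± 0.04 and -0.30 ± 0.04 (adjusted p = 5.53e-12, 2.76e-08 and 3.65e-08). At 1 h Mtf1 was higher in degrader plus A485 than in A485 by 0.12 ± 0.04, a call (adjusted p = 0.0475) that edgeR and DESeq2 did not make (adjusted p = 0.127 and 0.172), that was lost after quantile normalization (0.0635) and with only the compared groups fitted (0.206), and that was also lost when 5 of its 6 libraries were left out in turn (adjusted p up to 0.228): A485 replicates 1, 2 and 3 and degrader plus A485 replicates 2 and 3. Within degrader plus A485, Mtf1 was higher at 1 h than at 15 min by 0.15 ± 0.04 (adjusted p = 0.00173).

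In the separate time course, no change of Mt1 with the degrader was called when all libraries were used. The values in DMSO were 221, 230.4 and 227. With degrader they were 205, 222 and 214 at 15 min, 236, 211 and 420.2 at 30 min, 142, 181 and 158 at 1 h, and 218 and 236 at 2 h. Only the 1 h libraries lay wholly below DMSO, and the 30 min library at 420.2 is the replicate 3 that stands apart. The change against DMSO at 1 h was -0.50 ± 0.19 and was not called (limma adjusted p = 0.116; 11.3% of all genes were called). Without the 2 libraries that stand apart the same change had an SE of 0.11 and was called (adjusted p = 0.00157). At 15 min, 30 min and 2 h the changes were -0.08 ± 0.19, 0.28 ± 0.19 and 0.01 ± 0.22 (adjusted p = 0.893, 0.336 and 0.99; 6.93%, 13.9% and 9.39% of genes called), and without those libraries the 30 min change was -0.02 ± 0.12 (adjusted p = 0.93). Beside this, the A485 series gave changes of -0.23 ± 0.23, -0.83 ± 0.23 and -1.43 ± 0.23 at 15 min, 30 min and 1 h of degrader; the 2 tables were normalised separately and their difference was not tested.

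**Figure D3:**
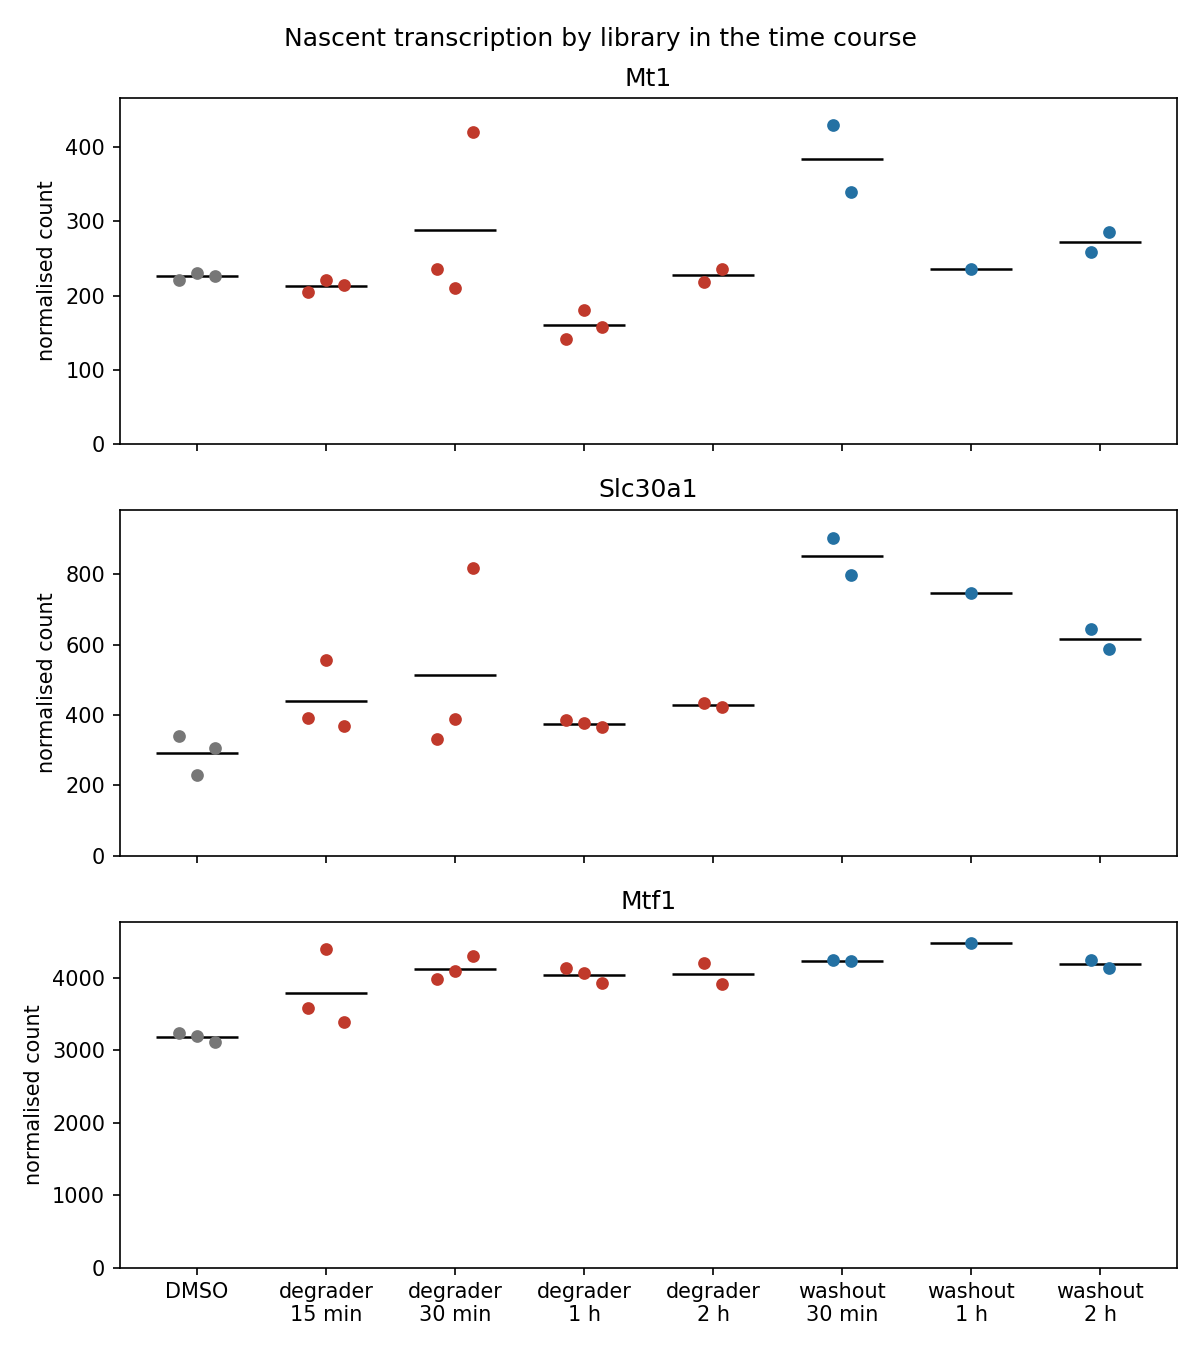
Normalised counts of Mt1, Slc30a1 and Mtf1 in each library of the time course (points; bars are group means), with linear axes from 0. Slc30a1 and Mt1 peaked in washout 30 min, at means of 851 and 385, and the high point in degrader 30 min is replicate 3.

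Mt1 was higher 30 min after removal of the degrader than at 2 h of degrader or in DMSO, and was not called at 1 h or 2 h of washout. Washout 1 h is 1 library of less certain washout time, assumed here to vary like the other groups. When the rise of Mt1 ended is therefore not settled. No group of DMSO cells went through a washout. For all 3 genes, removal of the degrader and the handling of the washout therefore cannot be told apart. The washout libraries read 429.9 and 339 at 30 min, 236 at 1 h, and 259 and 286 at 2 h. At 30 min both values were above all other settled libraries of the time course except degrader 30 min replicate 3. The change in washout 30 min against degrader 2 h was 0.75 ± 0.24 (limma adjusted p = 0.0336; 24.3% of all genes were called), and against DMSO 0.75 ± 0.22 (adjusted p = 0.01; 48.8% called). The first call was lost when any of its 4 libraries was left out (changes from 0.58 to 0.92, adjusted p from 0.0755 to 0.207), and the second without washout 30 min replicate 1 (0.58, adjusted p = 0.117); without the 2 libraries that stand apart, both were called (adjusted p = 0.000119 and 2.2e-05). At 1 h and 2 h of washout the changes against degrader 2 h were 0.05 ± 0.29 and 0.26 ± 0.23, without a call (adjusted p = 0.928 and 0.484; 7.37% and 17.3% called), and against DMSO 0.06 ± 0.27 and 0.27 ± 0.21 (adjusted p = 0.884 and 0.342; 28.1% and 38.5% called).

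Slc30a1 was likewise highest at 30 min of washout. Its DMSO libraries read 340.1, 229 and 306. The degrader libraries read 391, 558 and 370.4 at 15 min, 332, 388 and 817 at 30 min, 387, 377 and 365 at 1 h, and 435 and 424 at 2 h. Of these 11 libraries 10 lay above all DMSO libraries, and the highest, 558 and 817, are the 2 that stand apart. The washout libraries read 903 and 799 at 30 min, 746 at 1 h, and 644 and 588 at 2 h, all above the degrader 2 h pair.

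In washout 30 min, 24.3% of all genes were called against degrader 2 h and 48.8% against DMSO. In washout 2 h, 38.5% were called against DMSO. For Slc30a1 the change in washout 30 min was 0.98 ± 0.30 against degrader 2 h (limma adjusted p = 0.0321) and 1.56 ± 0.28 against DMSO (adjusted p = 0.000753). Against DMSO it was also called at 1 h and 2 h of washout, at 1.37 ± 0.35 and 1.09 ± 0.28 (adjusted p = 0.0105 and 0.00621), the 2 h call being lost without its first library (adjusted p = 0.0551). Washout 1 h is 1 library of less certain washout time, which is assumed here to vary like the other groups. The change against degrader 2 h lost its call without any 1 of the 4 libraries (0.89 to 1.07, adjusted p from 0.0952 to 0.152). With degrader, the changes against DMSO were 0.59 ± 0.25 at 15 min, 0.71 ± 0.25 at 30 min, 0.38 ± 0.25 at 1 h and 0.58 ± 0.28 at 2 h, none called by limma with all libraries (adjusted p = 0.221, 0.0674, 0.4 and 0.242). On recovered reads the 30 min change was called by edgeR (0.84, adjusted p = 0.0449) and DESeq2 (0.82, adjusted p = 0.0132). The 30 min change became a call without replicate 1 (0.97, adjusted p = 0.015) or replicate 2 (0.85, adjusted p = 0.0425), which leaves replicate 3 with 1 other library. Without the 2 libraries that stand apart, 3 of these 4 were called: 0.40 ± 0.12 at 15 min (adjusted p = 0.0178), 0.38 ± 0.11 at 1 h (0.0102) and 0.58 ± 0.12 at 2 h (0.000998), while 30 min was 0.32 ± 0.12 (0.0677). On the same libraries the changes against degrader 2 h at 1 h and 2 h of washout, 0.80 ± 0.37 and 0.52 ± 0.30 with all libraries (adjusted p = 0.202 and 0.265), were called as well (0.000879 and 0.0039).

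**Figure D4:**
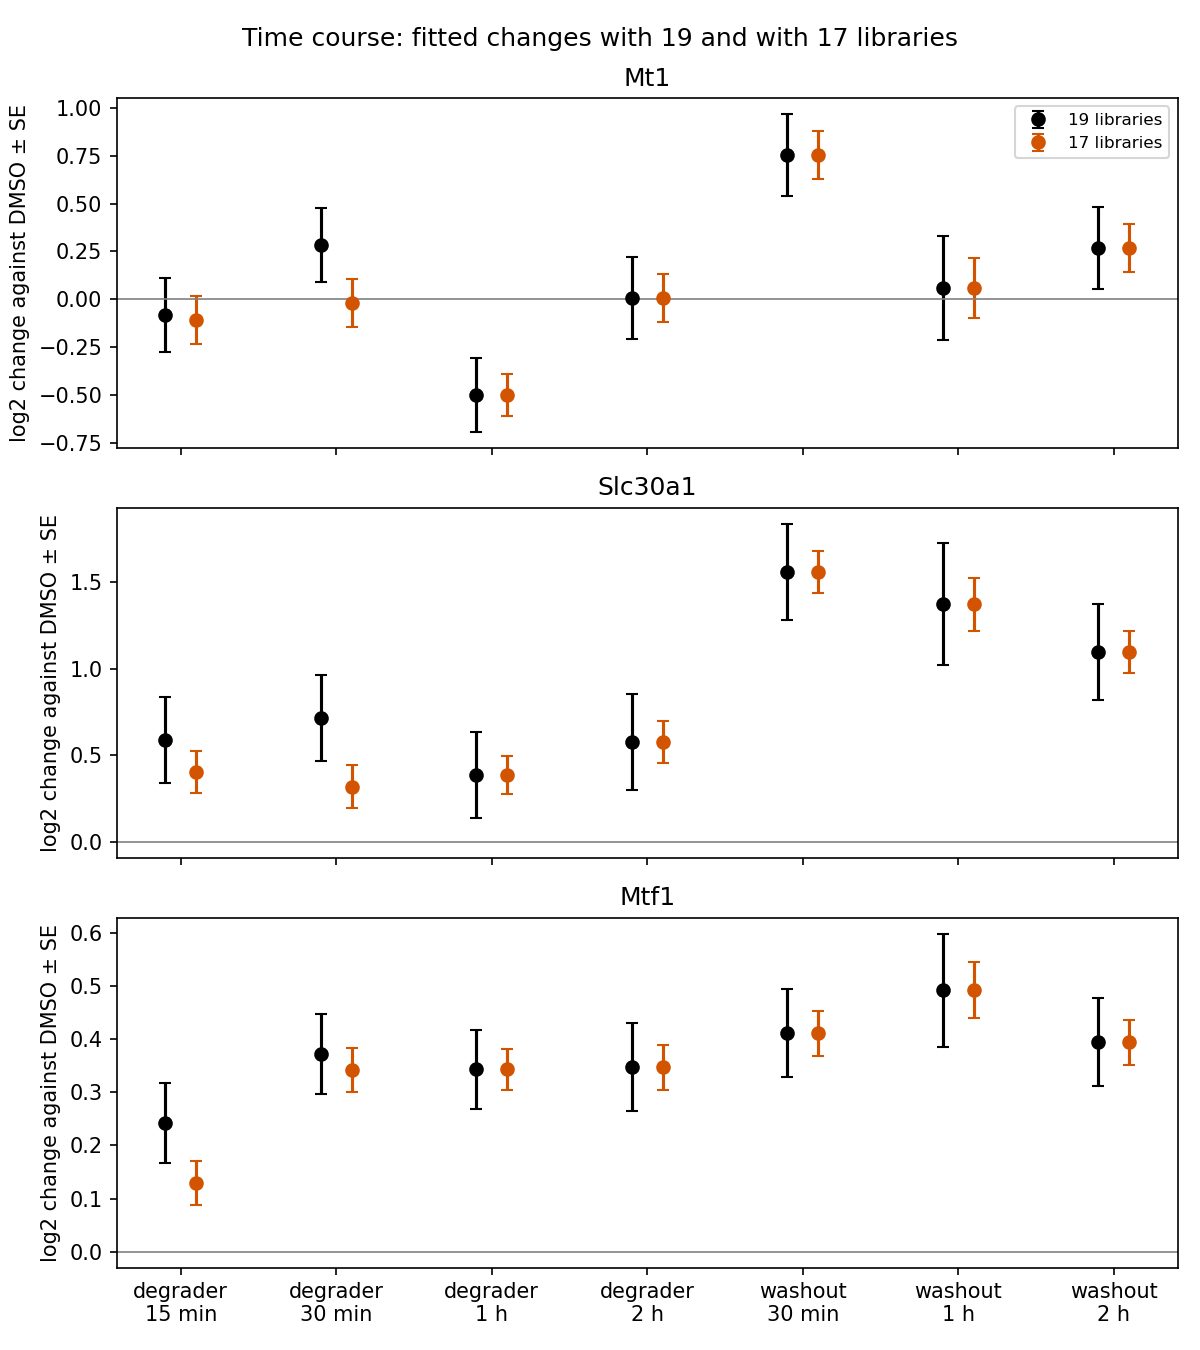
Log2 change against DMSO (points ± SE) of Mt1, Slc30a1 and Mtf1 in each group of the time course, fitted with 19 libraries and with 17, without the 2 that stand apart. The estimates of groups that keep their libraries stay the same and their SE shrinks; for Slc30a1 at 30 min of degrader the estimate is 0.71 with 19 and 0.32 with 17 libraries.

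Mtf1 rose with the degrader in the time course and was also higher than DMSO at 30 min and 2 h of washout. Against DMSO, 13.9%, 11.3% and 9.39% of all genes were called at 30 min, 1 h and 2 h of degrader. At 30 min and 2 h of washout, 48.8% and 38.5% were called. For Mtf1 the DMSO libraries read 3245, 3203 and 3116. The 11 degrader libraries ran from 3387 through a median of 4071 to 4405 and the 5 washout libraries from 4134 through 4245 to 4483, all above DMSO. The change against DMSO was 0.24 ± 0.08 at 15 min (limma adjusted p = 0.0672), and was called at 30 min, 1 h and 2 h of degrader, at 0.37 ± 0.08, 0.34 ± 0.08 and 0.35 ± 0.08 (adjusted p = 0.00323, 0.00525 and 0.0129). At 2 h it was lost without replicate 1 (adjusted p = 0.18) or replicate 2 (0.0503), and at 15 min it was called without replicate 3 (0.0145), and without the 2 libraries that stand apart (0.13 ± 0.04, adjusted p = 0.0269). With all libraries the 15 min change was also called by edgeR (0.27, adjusted p = 0.0368), by DESeq2 (0.26, adjusted p = 0.02) and after quantile normalization (0.24, adjusted p = 0.0401). In washout 30 min, 1 h and 2 h against DMSO it was 0.41 ± 0.08, 0.49 ± 0.11 and 0.39 ± 0.08 (adjusted p = 0.00159, 0.00384 and 0.00191), the 1 h value resting on 1 library that is assumed to vary like the other groups, and no washout group was called against degrader 2 h (adjusted p from 0.458 to 0.768). The libraries labelled degrader 1 h and 2 h, which bear A485 in their titles, had more Mtf1 than DMSO, while every A485 library of the A485 series had less than its DMSO. In that series Mtf1 was not called with degrader alone either, at changes of 0.05 to 0.06. Gata1 and Alas2, given above, were higher than DMSO in the 1 h libraries and with 1 h of degrader alone in the A485 series. With 1 h of A485 both were lower than DMSO. Which agent the libraries of conflicting labels received was not tested.

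Mt1 fell with LBH589 at 1 h. The DMSO libraries read 240.0, 276 and 273, the LBH589 30 min libraries 296, 226 and 291, and the LBH589 1 h libraries 172, 198 and 164. The 1 h group lay below the other 2 groups without overlap. Its change was -0.56 ± 0.10 against DMSO and -0.60 ± 0.10 against LBH589 30 min (limma adjusted p = 1.8e-05 and 1.16e-05), where 67.0% and 56.9% of all genes were called. At 30 min the change against DMSO was 0.04 ± 0.10 (adjusted p = 0.814; 39.7% called).

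Slc30a1 rose with LBH589. It read 448, 491 and 482 in DMSO, 539, 536 and 564 in LBH589 30 min, and 516, 513 and 612 in LBH589 1 h, so that all 6 treated libraries were above DMSO. The change was 0.21 ± 0.07 at 30 min and 0.20 ± 0.07 at 1 h (limma adjusted p = 0.0172 and 0.01), where 39.7% and 67.0% of all genes were called. The 1 h call was lost without DMSO replicate 7 (adjusted p = 0.0628) or LBH589 1 h replicate 3 (0.12 ± 0.07, adjusted p = 0.139), and the 30 min call without DMSO replicate 7 (0.0938) or LBH589 30 min replicate 3 (0.0653). Mtf1 averaged 2668 ± 81.2 in DMSO, 2782 ± 69.8 in LBH589 30 min and 2396 ± 41.6 in LBH589 1 h (SD, n = 3 each). Its change at 1 h was -0.16 ± 0.04 against DMSO (adjusted p = 0.000437) and -0.21 ± 0.04 against LBH589 30 min (9.89e-06), and at 30 min 0.06 ± 0.04 (adjusted p = 0.194).

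In the LBH589 washout series, Slc30a1 was higher at the later time. It read 581, 515 and 436 at 1 h of washout, against 395, 371 and 326 at 30 min, without overlap. The change of 0.48 ± 0.13 was called (limma adjusted p = 0.0269; 23.3% of all genes called). The call was lost without washout 1 h replicate 1 (adjusted p = 0.0945) or without any of washout 30 min replicates 1, 2 and 3 (0.0511, 0.0888 and 0.123), and after quantile normalization (0.43, adjusted p = 0.0575). Mt1 read 174, 151 and 118 at 1 h and 144, 137 and 185 at 30 min, which overlap, with a change of -0.08 ± 0.19 (adjusted p = 0.778). Mtf1 read 1740, 1640 and 1680 at 1 h and 1547, 1530.0 and 1634 at 30 min, with a change of 0.10 ± 0.07 (adjusted p = 0.324).

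**Figure D5:**
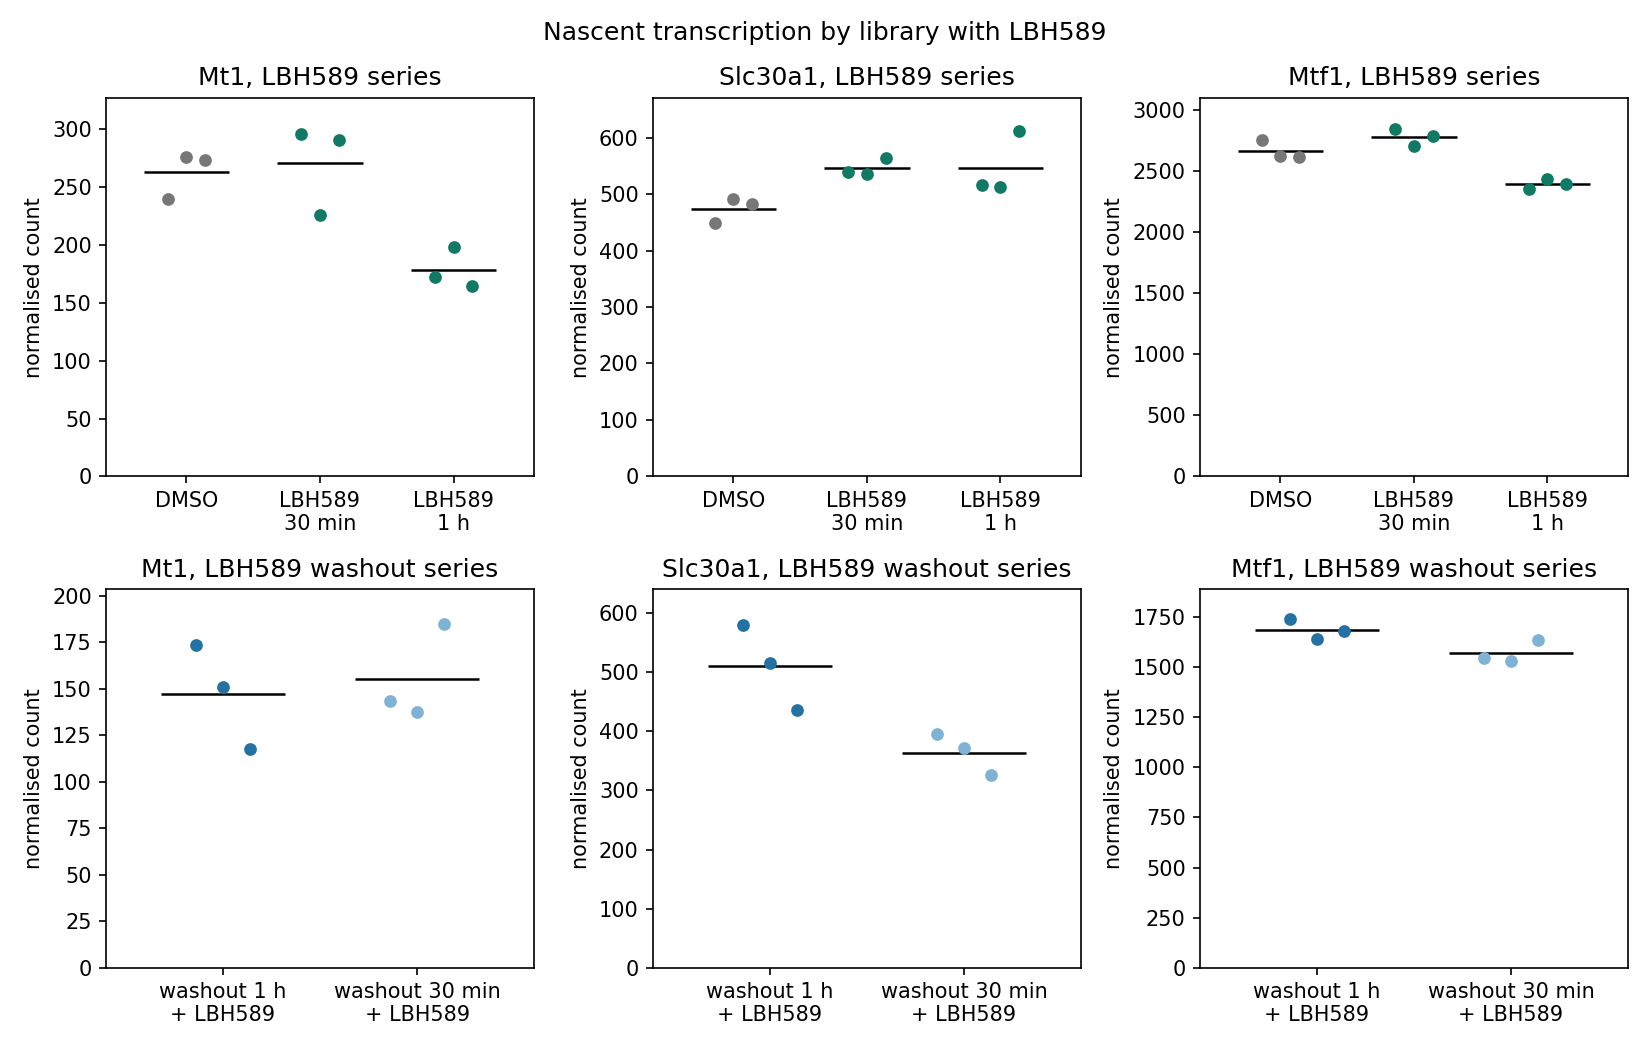
Normalised counts of Mt1, Slc30a1 and Mtf1 in each library of the LBH589 series (upper row) and of the LBH589 washout series (lower row); bars are group means and axes start at 0. Mt1 at 1 h of LBH589 (164 to 198) lay below DMSO (240.0 to 276), and Slc30a1 at 1 h of washout (436 to 581) lay above 30 min (326 to 395).

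Lists of other genes of metal handling and stress were read in the same contrasts. The lists share genes: Gclc is among the other MTF1 targets and the oxidative stress genes. Slc39a10 is among the other MTF1 targets and the zinc importers. The MTF1 targets were not split by the direction in which MTF1 acts on them. The other metallothioneins were not analysed here. In washout 30 min against degrader 2 h, where 10.5% of all genes were higher and 13.8% lower, 2 of 7 tested zinc exporters other than Slc30a1 were called, both lower, Slc30a9 at -0.62 ± 0.19 and Slc30a6 at -0.59 ± 0.17 (limma adjusted p = 0.0284 and 0.0251), with a median change of 0.06 against 0.00 over all genes. Of 13 zinc importers of the Slc39 family, 2 were called, both lower, with a median of -0.12, Slc39a5 at -1.44 ± 0.34 and Slc39a14 at -0.24 ± 0.08 (adjusted p = 0.0156 and 0.0397). Of 8 genes of copper handling, the importer Slc31a1 was higher at 0.45 ± 0.10, and the export pump Atp7b and Commd1 were lower at -0.85 ± 0.12 and -0.31 ± 0.10. Of 5 other reported targets of MTF1, 1 was higher, Csrp1 at 0.62 ± 0.19 (adjusted p = 0.0308), with a median of 0.36. Of 16 genes of the oxidative stress response, 4 were higher and 2 lower, with the largest changes in Nfe2l2, which encodes NRF2, at 1.01 ± 0.30, Nqo1 at -0.91 ± 0.22, Mafg at 0.54 ± 0.18 and Bach1 at 0.47 ± 0.12. Of 7 genes that respond to glucocorticoids, 2 were higher and 2 lower, Sgk1 at -0.75 ± 0.20, Per1 at 0.68 ± 0.23, Tsc22d3 at 0.33 ± 0.11 and Fkbp5 at -0.20 ± 0.07. Cd79a and Krt8 were tested there, and 0 of these 2 markers were called by limma, edgeR or DESeq2 (2 at an unadjusted limma p under 0.05).

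With the degrader, Slc30a10, a manganese exporter of the same family, was the member of the list with a call in both tables. At 1 h of degrader against DMSO it changed by 1.22 ± 0.26 in the time course (limma adjusted p = 0.00468) and by 0.85 ± 0.18 in the A485 series (adjusted p = 0.000668), 1 of 7 exporters in each. Of all genes, 8.13% were higher and 3.13% lower in the first comparison, and 14.7% and 10.9% in the second. Of 5 other MTF1 targets, 0 were called in either by limma, edgeR or DESeq2, and 0 had an unadjusted limma p under 0.05. In the same 2 comparisons 0 and 1 of 13 zinc importers and 1 and 1 of 8 copper genes were called (1 of the importers in the time course had an unadjusted p under 0.05, 0 were called by edgeR and 1 by DESeq2). Among the oxidative stress genes, 3 of 16 were lower in the time course (Hmox1 -0.89 ± 0.23, Txnrd1 -0.25 ± 0.05, Gclm -0.22 ± 0.06) and 4 of 16 in the A485 series (Gclm -0.27 ± 0.06, Gsr -0.27 ± 0.06, Keap1 -0.24 ± 0.06, Txnrd1 -0.22 ± 0.04), with medians of -0.19 and -0.14.

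In A485 1 h against DMSO, where 29.4% of all genes were higher and 33.2% lower, most tested members of 3 lists were lower. These groups also differ in their library numbers, whose meaning is not given. Of 5 other MTF1 targets 4 were lower, Ndrg1 at -0.996 ± 0.098, Csrp1 at -0.64 ± 0.10, Selenow at -0.52 ± 0.11 and Gclc at -0.36 ± 0.05, and Slc39a10 was higher at 0.24 ± 0.07. Of 16 oxidative stress genes 13 were lower and 1 higher, with a median of -0.63 and the largest changes in Gclm (-2.02 ± 0.06), Bach1 (-1.41 ± 0.05), Slc7a11 (-1.24 ± 0.08) and Nfe2l2 (-1.17 ± 0.05). Of 7 genes of the glucocorticoid list 6 were called, all lower, with a median of -1.19, led by Dusp1 (-1.68 ± 0.19), Per1 (-1.44 ± 0.10), Tsc22d3 (-1.21 ± 0.05) and Sgk1 (-1.19 ± 0.12). Of 7 zinc exporters 3 were higher and 3 lower, with Slc30a10 at -2.19 ± 0.18 and Slc30a3 at 1.56 ± 0.34. Of 13 importers 5 were higher and 2 lower, with Slc39a8 at -0.88 ± 0.06 and Slc39a3 at 0.80 ± 0.10. Of 8 copper genes 1 was higher and 4 lower, with Atp7b at -2.43 ± 0.06 and Sod1 at -1.04 ± 0.10. In the interaction at 1 h, where 4.99% of genes were higher and 6.54% lower, 0 of 8 copper genes and 0 of 5 other MTF1 targets were called by limma, edgeR or DESeq2 (2 and 1 at an unadjusted limma p under 0.05), with medians of 0.01 and 0.11 against 0.01 over all genes.

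In LBH589 1 h against DMSO, where 32.4% of genes were higher and 34.6% lower, 4 of 7 zinc exporters were called, all higher, led by Slc30a10 (0.45 ± 0.06). Of 8 copper genes 5 were higher and 2 lower, with Slc31a1 at 0.86 ± 0.06, Atp7b at -0.86 ± 0.04, the chaperone Atox1 at 0.80 ± 0.05 and Ccs at 0.63 ± 0.07. Of 16 oxidative stress genes 5 were higher and 7 lower, led by Hmox1 at 0.95 ± 0.08. In the LBH589 washout series at 1 h against 30 min, Slc30a10 was the exporter that was called, at 0.49 ± 0.14 (limma adjusted p = 0.0302), 1 of 6 tested, where 13.2% of genes were higher and 10.1% lower.

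Over the 28 libraries of the A485 series, the 5 genes with the highest Pearson correlation to Mt1 on the log2 scale were Sesn3 (0.95), Tigit (0.94), Gfpt1 (0.94), Ier2 (0.94) and Lncpint (0.94). Slc30a1 was at 0.76, rank 1687 of 12596 genes, and Mtf1 at 0.73, rank 2079. These libraries share DMSO, depth and the A485 groups, so the values only describe the pattern. Outside that series, Sesn3 was lower at 1 h of degrader in the time course, by -0.67 ± 0.12 (limma adjusted p = 0.00152), while Tigit, Gfpt1, Ier2 and Lncpint were not called (-0.44 ± 0.29, -0.06 ± 0.06, -0.33 ± 0.18 and -0.27 ± 0.11, adjusted p = 0.407, 0.643, 0.294 and 0.133). Tigit and Ier2 were lower in LBH589 1 h against DMSO, at -0.70 ± 0.13 and -0.49 ± 0.07, while Gfpt1 and Lncpint were higher, at 0.49 ± 0.04 and 0.10 ± 0.03, and Sesn3 was not called (0.01 ± 0.04, adjusted p = 0.848).

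Some measured neighbours of the 3 genes in the reference gene table were called as well. The values of 1110065P20Rik, Yrdc, Nek2 and Rd3 are not reported here. Of all genes, 48.8% were called in washout 30 min against DMSO and 62.6% in A485 1 h against DMSO. In the A485 series 25.6% were called in degrader 1 h against DMSO and 11.5% in the interaction at 1 h. With degrader in the time course the share lay between 6.93% and 13.9%. Nup93, downstream of Mt1, changed by -0.10 ± 0.04 in degrader 1 h against DMSO in the A485 series (limma adjusted p = 0.0463) and by 0.11 ± 0.04 in A485 1 h against DMSO (0.0123), the opposite sign to Mt1, with an interaction of 0.17 ± 0.05 at 1 h (0.0388). Nup93 was higher in washout 30 min against DMSO, at 0.26 ± 0.09 (0.0226), and not called against degrader 2 h (0.557). Inpp5b, upstream of Mtf1, rose with the degrader in the time course, by 0.54 ± 0.04, 0.62 ± 0.04, 0.58 ± 0.04 and 0.51 ± 0.05 at 15 min, 30 min, 1 h and 2 h (adjusted p = 6.42e-07, 1.14e-07, 1.19e-07 and 2.57e-06), and fell in A485 1 h against DMSO by 0.81 on the log2 scale. With degrader alone in the A485 series, Inpp5b changed by 0.13 ± 0.05 and 0.10 ± 0.05 at 15 min and 30 min, without a call (limma adjusted p = 0.0504 and 0.143). At 1 h there it changed by 0.22 ± 0.05 (limma adjusted p = 0.000761). The long noncoding RNA 1700034H15Rik overlaps Slc30a1 on the opposite strand. It was higher in washout 30 min against DMSO, at 1.06 ± 0.20 (adjusted p = 0.00113), and lower in A485 1 h against DMSO, at -0.61 ± 0.14 (adjusted p = 0.000384). Whether the counting used strand is not given, so reads of Slc30a1 and 1700034H15Rik, and of Mtf1 and 1110065P20Rik, which overlaps it likewise, cannot be told apart.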

How the data were processed

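PRO-seq was measured in 65 samples of 23 groups in 4 experiments. The authors deposited a signal per transcript, which the labels call DESeq2-normalised; by its values it is whole read counts divided by a factor for each library. Tools listed in the submitters' processing notes, with no roles, are featureCounts 2.0.1, HOMER, bedtools, DESeq2 1.46.0, SAMtools 1.16.1 and Bowtie2 2.2.2, with dm3 and mm39 as genome builds; how reads were assigned and whether strand was used is not given in the sources used. A change shared by most genes cannot be seen in values scaled in this way: the median log2 change over all genes lay within 0.023 of 0 in every comparison. All values (100.0%) were whole reads within a tolerance of 0.1 after division by the library's smallest step, and depth was recovered from that step. A gene column of the time course is empty (1 per-sample column not used). The 2 columns named 30 min washout replicate 3 and 1 h washout replicate 2 went against their names and were left out, which leaves 19 libraries. They correlated at r = -0.89 and 0.76 with the equally named columns of the dREG table. With the next columns, named 1 h washout replicate 1 and 2 h washout replicate 1, r was 0.98 and 0.92. The library numbers of the kept 1 h and 2 h washout columns are not settled either, and these columns were used by group name. The kept 1 h washout column correlated at r = 0.93 with the equally named dREG column and at 0.98 with the one named 2 h washout replicate 3.

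Genes with a mean of at least 10 (12720, 12597, 12553 and 12342 genes in the time course, A485, LBH589 and LBH589 washout series) were tested on log2(value + 1) with limma 3.58.1 (lmFit, eBayes with a trend) in R 4.3.3, with all groups of a table in 1 fit and no block, and Benjamini-Hochberg adjustment per comparison. The scale understates changes of low genes. Nothing says that replicates are separate cultures, so p-values measure the spread between these libraries. The script was tested on simulated counts. Alternatives were a pseudocount of 5, no filter, quantile normalization, a fit of the compared groups only, edgeR 4.0.16 (quasi-likelihood, TMM) and DESeq2 1.42.0 on recovered reads, each library left out, and replicate number as a block. Deviations of same-numbered libraries had a median r of 0.03, -0.01, 0.03 and 0.00 in the 4 tables, so the block stayed an alternative. In the time course r ran from -0.33 to 0.24, with 10 of 36 pairs over 0.1. In the A485 series the block was fitted within each set of numbers, so it does not adjust for a difference between the sets. Motif searches used RefSeq promoter windows of GRCm38.p6; sites recognised by dREG were not used for the genes, since the gene tables give no coordinates.

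The 4 genes and the gene lists were chosen with earlier results of these data known. Named genes are the members, up to 3 reference neighbours on each side, up to 4 called list members with the largest change, and the 5 genes most correlated with Mt1; for some lists fewer are named, and some markers are not reported here.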

Additional observations from a re-analysis of the deposited data

Results flagged for a closer look

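Levels above every DMSO library were found in the 2 gene columns of the time course whose library was not settled and which no comparison uses. The column named 30 min washout replicate 3 read 332 normalised counts for Mt1, 4498 for Mtf1 and 881 for Slc30a1. Its highest correlation, r = 0.98, was with the dREG column named 1 h washout replicate 1. The column named 1 h washout replicate 2 read 231 for Mt1, 4186 for Mtf1 and 687 for Slc30a1. The highest DMSO libraries read 230.4 for Mt1, 3245 for Mtf1 and 340.1 for Slc30a1.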

How the results depend on the processing

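Over 3 genes, 41 comparisons and all alternatives, 1568 of 1659 values kept their direction where it was called and their side of the threshold, or for Mt1 in the A485 series moved by less than 1 SD; 61 lost a call, 26 gained one, 4 moved and 0 reversed. With only the compared groups fitted, the calls at degrader 1 h against DMSO were gained for Mt1 (-0.50, limma adjusted p = 0.00664) and Slc30a1 (0.38, 0.0364), and at degrader 2 h for Slc30a1 (0.58, 0.011). The same setting gained 5 calls and lost 4 in all; the 4 are Mtf1 in degrader plus A485 1 h against A485 1 h (adjusted p = 0.206) and Slc30a1 in A485 1 h against 15 min (0.0632) and 30 min (0.316) and in degrader plus A485 1 h against 30 min (0.102). Quantile normalization gained 6 calls and lost 3. Without the 2 libraries that stand apart the same 3 results were called, at -0.50, 0.38 and 0.58 (adjusted p = 0.00157, 0.0102 and 0.000998). With the replicate block, Slc30a1 in washout 30 min against degrader 2 h stayed at 0.98 but lost its call (adjusted p = 0.0517), and the interaction of Mt1 at 1 h stayed at 1.97. The block, on numbers with no shown pairing, also ended the calls of Mtf1 in degrader plus A485 1 h against A485 1 h (0.12) and of Slc30a1 at 1 h against 30 min within A485 and within degrader plus A485 (-0.27 each). Leaving out 1 library gave 0.58 to 0.92 for Mt1 and 0.89 to 1.07 for Slc30a1 in washout 30 min against degrader 2 h, 0.30 to 0.40 for Mtf1 at degrader 2 h against DMSO, and 0.12 to 0.25 for Slc30a1 at LBH589 1 h against DMSO; each range holds libraries without which the call was lost. The smaller number of libraries and their pooled spread are part of these settings, and the cause was not tested further. The columns read as the header names them changed no call. For genes with other transcripts the lowest-mean one could not be tried, since each gene has 1; the tests of dREG sites near the genes were not run for lack of coordinates in the gene tables; the A485 1 h contrasts give no value without libraries under 15000000 reads, an alternative chosen after seeing the data, as was the use of the 15 min groups in place of DMSO. Without the 5 libraries of conflicting labels, the degrader 1 h and 2 h contrasts have no value. Mt1 has 5 to 15 reads per A485 1 h library, which limits any statement on that group.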

Other observations

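The order of the group levels differed between the 3 genes. In the time course, washout 30 min was highest for Mt1 and Slc30a1, with means of 385 and 851 normalised counts, while DMSO was lowest for Mtf1 and Slc30a1, with 3188 and 292, and degrader 1 h was lowest for Mt1, with 160.4. Of the neighbouring pairs in that order, ranges of 5 of 7 overlapped for Mt1, 5 of 7 for Mtf1 and 3 of 7 for Slc30a1. In the A485 series, DMSO was highest for Mt1, at 165, degrader 30 min for Slc30a1, at 305, and degrader 1 h for Mtf1, at 2122, and 8, 4 and 5 of 9 neighbouring pairs overlapped for Mt1, Slc30a1 and Mtf1.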
